A study of Homo sapiens with 42 samples.

Results

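Knockdown of COPB2 was examined in IMR90 ER:RAS cells undergoing oncogene-induced senescence (OIS), in 9 of the 42 RNA-seq libraries of the series. These 9 were chosen by their labels and fall into 3 groups of 3: a control shRNA (3 libraries), COPB2 shRNA 1 (3 libraries) and COPB2 shRNA 2 (3 libraries). IMR90 is a human lung fibroblast line, and ER:RAS is a RAS oncogene fused to an oestrogen receptor domain, carried in on a retrovirus, which 4-hydroxytamoxifen (4OHT) switches on. All 9 cultures received 100 nM 4OHT, were kept for 7 days, and were then given 1 µg/ml doxycycline, the inducer of the shRNAs, for 72 h before RNA was taken on day 10. The labels call the control cells wild type and the knockdown cells COPI Knockdown. The study counts its replicates as independent experiments. Whether the lines are clones is not given in the sources used here. Doxycycline, 4OHT and the RAS fusion were present in the controls too. The knockdown was also read in 9 ER:RAS libraries given DMSO in place of 4OHT, in which RAS was not switched on, and in 12 IMR90 libraries made senescent with 50 µg/ml bleomycin for 24 h. These 2 sets have their own control shRNA libraries and the same schedule of doxycycline.

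COPB2 encodes the β′ subunit of coatomer (COPI), the coat of vesicles that leave the Golgi to return escaped proteins and cargo receptors to the ER (the endoplasmic reticulum), and that move cargo between Golgi cisternae. When protein folding or traffic in the ER fails, the unfolded protein response raises chaperones such as HSPA5 through ATF6 and XBP1, and raises ATF4, DDIT3 (CHOP) and their amino acid supply genes through the kinase PERK. Cells in OIS secrete large amounts of cytokines, proteases and growth factors, the senescence-associated secretory phenotype (SASP), all of which pass through this route.

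Each shRNA is made inside the cell from a doxycycline-driven microRNA-like hairpin, and its guide strand directs cleavage of the paired COPB2 transcript. The guides listed for COPB2 under the numbers 1 and 2 in the study's table of oligos are shown because the comparison rests on genes that move alike under both; capitals mark the seed, bases 2 to 8 from the 5′ end.
COPB2 shRNA 1: tTAAATATctttacaatgctgt
COPB2 shRNA 2: tAATTGAAcactctaatctgca
The guides are 22 bases long, have different seeds and hold the same base at 8 positions. Their reverse complements were matched to GENCODE transcripts on GRCh37, where COPB2 lies on the minus strand of chromosome 3. The site of shRNA 1 (chr3:139088345-139088366) is in exon 11 of 22 of the transcript COPB2-201 and that of shRNA 2 (chr3:139097987-139098008) in exon 4, both in coding sequence and 990 bases apart in the transcript. Of the annotated genes, only COPB2 held a full match to either site. The site of shRNA 1 was present in 7 of 10 protein-coding COPB2 transcripts and that of shRNA 2 in 10 of 10.

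The 9 libraries held 16465900 to 20312816 counted reads, so that 3 counts, the floor used here, correspond to 0.153 to 0.228 CPM (counts scaled to a library of 1000000). Levels below are CPM with TMM factors, which do not correct for gene length, so they compare a gene between libraries and not genes with each other. Control replicate 1 stood apart, with a TMM factor of 0.726 against 0.926 to 1.025 in the other 8 libraries. Over the 18 ER:RAS libraries, 76.3% of the variance within groups lay on 1 component that followed the GC content of the transcripts. Each library was placed by the Spearman correlation of its deviations with GC content. Among the 9 libraries with 4OHT this was highest in control replicate 1 (0.69) and lowest in control replicate 3 (-0.67). Control replicate 2 (-0.36) departed from the knockdown libraries of the same number (0.55 and 0.65). Counts are therefore given with and without single libraries, and with an offset for GC content and length added after the data were seen.

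The target came first. In the control shRNA libraries COPB2 was at 303, 397 and 573 CPM. With shRNA 1 it was at 85.1, 79.0 and 98.6 CPM and with shRNA 2 at 99.9, 82.8 and 113 CPM. The groups did not overlap. COPB2 fell by 2.28 (SE 0.31) on the log2 scale with shRNA 1 (edgeR quasi-likelihood test, adjusted p = 0.00461) and by 2.11 (SE 0.30) with shRNA 2 (adjusted p = 0.00471). In DMSO the same shRNAs brought it from 238 to 416 CPM down to 30.3 to 63.6 CPM, and with bleomycin from 422 to 566 CPM down to 86.2 to 126 CPM. In a fit of the 9 libraries with 4OHT alone, the fall with shRNA 1 no longer passed the test.

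Of 14297 genes tested, shRNA 1 changed 20 (18 higher and 2 lower, 0.14% of genes tested) and shRNA 2 changed 32 (30 higher and 2 lower, 0.224%). Calls with both shRNAs, of equal sign, numbered 19 (0.133%), of which 17 were higher. The mean of both knockdown groups against the control changed 38 genes, 34 higher and 4 lower (0.266%), and the 19 were among them. Each of the 38 had the same sign with each shRNA, and in each the 6 knockdown libraries did not overlap the 3 controls, as was the case for 4.11% of genes tested (588). At an unadjusted p under 0.05 there were 735 of the 14297 genes, a share close to that threshold itself. The same fit gave 137 genes for the mean of both shRNAs in DMSO, so the threshold does not set the background here. With the offset for GC content and length there were 1656 with 4OHT. No gene differed between shRNA 2 and shRNA 1 in edgeR or in DESeq2; 78 and 38 genes had an unadjusted p below 0.05. Both shRNAs share the 3 control libraries, so the overlap of their calls is not independent evidence.

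**Figure D1:**
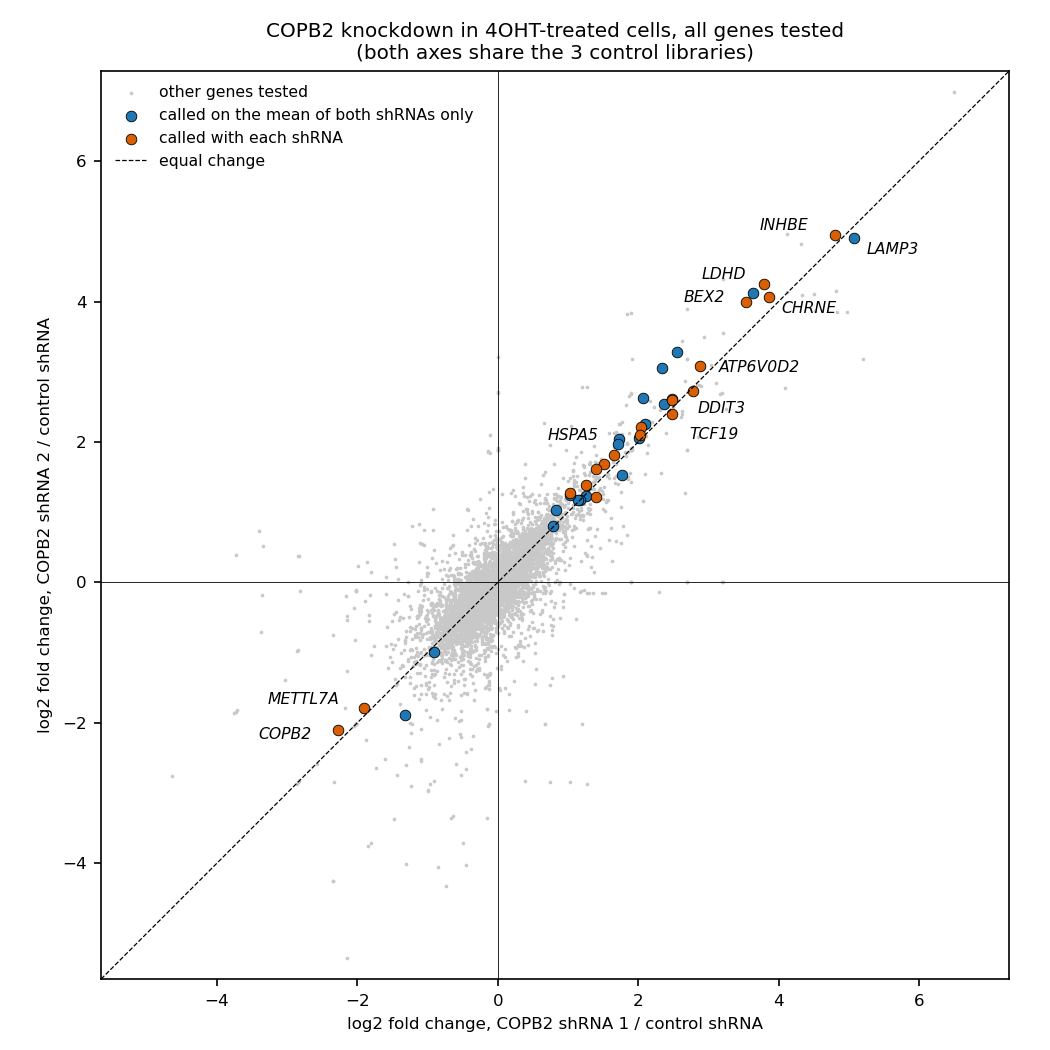
Log2 fold change of each of 14297 genes tested with COPB2 shRNA 2 (vertical axis) against that with shRNA 1 (horizontal axis), each relative to the same 3 control libraries with 4OHT. Orange points are the 19 genes called with each shRNA, blue points the other 19 called on the mean of both, grey points all other genes; the coloured points lie near the dashed line of equal change, 34 of them in the upper right.

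The number of calls changed with the libraries in the fit. Without control replicate 1 the mean contrast called 33 genes and both shRNAs 17, whereas without control replicate 2 it called 17 and 10, and without control replicate 3 21 and 10. Leaving out replicate 3 of shRNA 1 gave 23 and 11, and leaving out replicate 3 of shRNA 2 gave 25 and 16. In a fit of the 9 libraries with 4OHT alone, which has fewer degrees of freedom, the mean contrast called 11 genes, shRNA 2 called 10, and shRNA 1 called 0, with 371 at an unadjusted p under 0.05, so no gene was called with both; 9 of the 38 were still called, among them INHBE, BEX2 and LINC00346. With the offset for GC content and length the mean contrast called 218 genes (1.52%), 168 higher and 50 lower, and 36 of the 38 stayed called. The 15 genes still called in every one of the 9 fits without 1 library were COPB2, INHBE, DDIT3, ATF3, HERPUD1, BEX2, LDHD, CHRNE, C17orf107, C16orf71, TCF19, LINC00346, TES, MPC1 and METTL7A.

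Of the 34 higher genes, 11 were on any of the gene lists, which were chosen with results known, and 4 of these were on the list of ATF4 and CHOP targets. INHBE, which encodes the βE chain of the activin and inhibin family, was at 1.90, 0.917 and 0.468 CPM in controls, at 19.8, 27.6 and 43.5 CPM with shRNA 1 and at 22.5, 30.6 and 47.7 CPM with shRNA 2. The 6 knockdown libraries were all at least 10 times above the highest control, and the log2 difference of INHBE was 4.88 (SE 0.51, adjusted p = 0.000899). DDIT3, the pro-apoptotic transcription factor CHOP, was tight in controls at 24.9, 22.2 and 25.1 CPM. It reached 90.5, 98.8 and 216 CPM with shRNA 1 and 106, 114 and 215 CPM with shRNA 2, with replicate 3 highest in each group (log2 fold change 2.54, SE 0.35, adjusted p = 0.00263). ATF3, a stress-induced repressor of the same family of transcription factors, went from 17.6, 15.8 and 10.1 CPM to 39.9, 47.3 and 49.3 CPM and to 42.7, 48.9 and 60.8 CPM (log2 fold change 1.73, SE 0.21, adjusted p = 0.000899). ATF4 itself, the activator at the head of the branch, was more variable in controls, at 253, 178 and 109 CPM. It was at 343 to 400 CPM with shRNA 1 and at 398 to 469 CPM with shRNA 2 (log2 fold change 1.14, SE 0.20, adjusted p = 0.0243). The call of ATF4 held in 1 of the 9 fits without 1 library and had an adjusted p of 0.24 without control replicate 2.

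Of the genes for chaperones and ER degradation, HSPA5, HERPUD1 and DERL3 rose. HSPA5 (BiP), the main ER chaperone, was at 966.5, 495.1 and 1116.4 CPM in controls. With shRNA 1 it was at 2201.7, 2144.9 and 4119.1 CPM and with shRNA 2 at 2581.0, 2727.0 and 4828.6 CPM. Replicate 3 was again the highest of each knockdown group, and the lowest knockdown library had 1.92 times the CPM of the highest control. HSPA5 rose by 1.85 on the log2 scale (SE 0.33, adjusted p = 0.0229, and 0.133 without control replicate 2). HERPUD1, a membrane protein of ER-associated degradation, rose from 142, 89.1 and 117 CPM to 270, 277 and 369 CPM and to 311, 313 and 440 CPM (log2 fold change 1.51, SE 0.19, adjusted p = 0.0016). DERL3, a derlin of the same degradation pathway, rose from 0.287 to 0.760 CPM in controls to 1.68 to 2.85 CPM with shRNA 1 and 3.00 to 3.64 CPM with shRNA 2 (log2 fold change 2.34, SE 0.40, adjusted p = 0.0177, and 0.168 without control replicate 2). SLC1A4, a transporter of neutral amino acids, rose from 7.38 to 11.2 CPM to 21.1 to 34.1 CPM over the 6 knockdown libraries (log2 fold change 1.60, SE 0.25, adjusted p = 0.00676, and 0.0877 without control replicate 2).

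**Figure D2:**
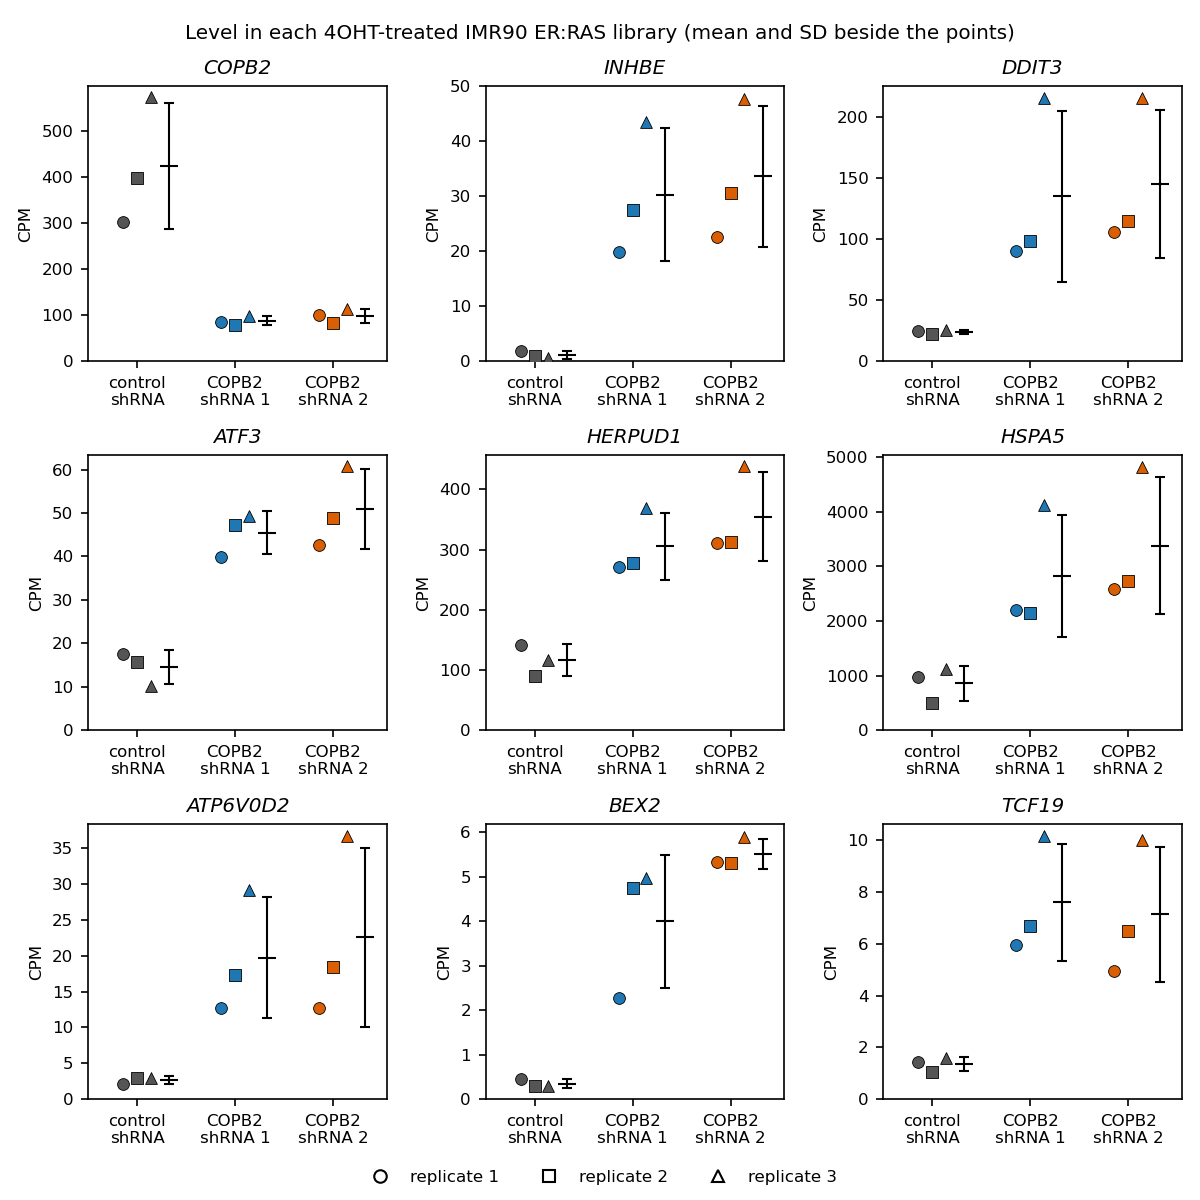
Level of 9 genes in CPM (vertical axes, each starting at 0) in each of the 9 libraries with 4OHT, by shRNA; circles, squares and triangles are replicates 1, 2 and 3, and the bars beside them the mean and SD (n = 3). COPB2 is below every control in the 6 knockdown libraries and the other 8 genes are above every control. For all 9 genes, COPB2 included, replicate 3 is the highest of each knockdown group.

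Lists of stress genes set these calls in context. Of 25 ATF4 and CHOP targets tested, 4 were called higher (INHBE, DDIT3, ATF3 and ATF4) and none lower, 22 had a log2 fold change above 0, and their median was 0.38. Over all genes tested 0.266% were called, 38.9% were above 0 and the median was -0.08, the background for every list below. Among members that did not pass the test, CHAC1, which degrades glutathione, was at 0.78 and the stress sensor SESN2 at 0.85, whereas GDF15, the secreted stress cytokine, was at -0.09 and PPP1R15A (GADD34), which reverses the block of translation, at 0.13. Of 43 genes for ER chaperones and ER-associated degradation, 3 were called (HSPA5, HERPUD1 and DERL3), 39 were above 0 and the median was 0.36. SEL1L, the partner of the ubiquitin ligase SYVN1, was at 1.23, the PERK gene EIF2AK3 at 0.92, HYOU1 at 0.64 and XBP1 at 0.17, none of them past the test. The summed level of this list was 7739 to 10982 CPM in controls, 12660 to 16350 CPM with shRNA 1 and 13969 to 17922 CPM with shRNA 2, without overlap. Summed levels also did not overlap for sterol synthesis and for fatty acid and phospholipid synthesis, both higher with knockdown. The same held for SASP cytokines, with a lower sum. The sum of immune markers was lower too, but only 3 of them were tested, 1 was above 0 and their median was -0.01. Of 21 genes of amino acid supply tested, 1 was called (SLC1A4), 19 were above 0 and the median was 0.55, with values of 1.51 for ALDH1L2, 1.47 for SLC6A9, 1.17 for PSAT1 and 1.01 for ASNS. With the GC content and length offset the calls were 7 for ATF4 and CHOP targets, 8 for ER chaperones and degradation and 6 for amino acid supply, all higher, and SESN2, SEL1L, HYOU1, ALDH1L2 and SLC6A9 were among them. The cytosolic tRNA synthetases, which ATF4 also controls, had 0 of 20 called and a median of 0.13, and the offset called 1 of them higher. Genes of the heat shock response, which senses misfolding in the cytosol, had 0 of 16 called and a median of -0.11.

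Within the COPI machinery the change was in the target and in ARF4. None of the 8 other coat subunits tested was called, and their median was 0.05, with a range from -0.25 for COPG2 to 0.71 for COPB1. COPB1, which encodes the β subunit, had an unadjusted p of 0.16 and was the only one of the 8 called with the GC content and length offset. ARF4, a small GTPase of the family that recruits the coat, was at 473.6, 460.6 and 481.2 CPM in controls. It rose to 824.6, 808.0 and 893.9 CPM and to 975.0, 813.5 and 1102.2 CPM (log2 fold change 0.93, SE 0.14, adjusted p = 0.00636). The spread of ARF4 among controls was small beside this difference, but with the GC content and length offset its adjusted p was 0.11, and without control replicate 2 it was 0.0642. ARF1, ARF3 and ARF5, other members of the family, were at -0.02, -0.04 and -0.43 and were not called, and GBF1, the exchange factor that loads ARF proteins with GTP at the Golgi, was at 0.28. In the 25 genes for Golgi structure and tethering, 0 were called and the median was 0.29, a value that ranged from 0.01 to 0.60 when 1 library was left out. COPII, the coat of export from the ER, had 0 of 22 called and a median of 0.13. MANEAL, which encodes a Golgi protein related to endomannosidase, rose from 0.152 to 0.516 CPM to 1.62 to 2.54 CPM over the 6 knockdown libraries (log2 fold change 2.45, SE 0.42, adjusted p = 0.019, and 0.103 without control replicate 3).

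Lysosomal genes did not move as a group, but 3 single genes did. ATP6V0D2, a d subunit of the membrane sector of the proton pump (V-ATPase) better known from osteoclasts and macrophages, was at 2.05, 2.92 and 2.99 CPM in controls. It reached 12.7, 17.4 and 29.1 CPM with shRNA 1 and 12.7, 18.4 and 36.6 CPM with shRNA 2, without overlap (log2 fold change 2.98, SE 0.45, adjusted p = 0.00636, and 0.0529 without control replicate 2). The gene lies on chromosome 8. In the 9 DMSO libraries it was at 0 to 0.185 CPM with either kind of shRNA, at or near the floor of 3 counts. The other 19 V-ATPase subunits tested were not called and lay between -0.46 and 0.46, and ATP6V0D1, the common form of the d subunit, was at -0.18. LIPA, the lysosomal acid lipase, rose from 32.4 to 38.9 CPM to 55.0 to 66.6 CPM (log2 fold change 0.80, SE 0.14, adjusted p = 0.0233), a call that held in 1 of the 9 fits without 1 library (adjusted p = 0.187 without control replicate 2) and had an adjusted p of 0.12 with the GC content and length offset. LAMP3, a lysosomal membrane protein induced by stress, had 0, 3 and 0 reads in controls, 19, 31 and 75 with shRNA 1 and 12, 37 and 67 with shRNA 2. From 3 reads against 241 its ratio was 35.7 (95% exact interval 12.1 to 174, counting error only), and the adjusted p was 0.0486 and reached 0.261 without control replicate 3. Of 44 lysosomal enzymes and membrane proteins listed, LIPA was the single call, 9 were above 0 and the median was -0.08, equal to that of all genes; cathepsins B, D and L and LAMP1 lay between -0.14 and -0.03. Autophagy genes had 0 of 44 called and a median of 0.04.

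Single genes of transport and metabolism were also called. MPC1, a subunit of the carrier that takes pyruvate into mitochondria, went from 15.9, 16.6 and 13.2 CPM to 32.4, 29.5 and 31.7 CPM and to 39.5, 34.5 and 36.2 CPM. Its replicates were close within each group, and the log2 fold change was 1.15 (SE 0.16, adjusted p = 0.00359). MFSD2A, the transporter of lysophospholipids that carry omega-3 fatty acids, was at 20.8 ± 1.5 CPM (SD, n = 3) in controls and at 41.6 to 49.6 CPM over the 6 knockdown libraries (log2 fold change 1.16, SE 0.21, adjusted p = 0.0238, and 0.216 without control replicate 2). KCNK6, a potassium channel, rose from 10.6 to 15.3 CPM to 25.4 to 31.2 CPM (log2 fold change 1.17, SE 0.20, adjusted p = 0.0154, and 0.155 without control replicate 2). MOCOS, the sulfurase that completes the molybdenum cofactor, rose from 1.22, 1.60 and 1.93 CPM to 4.20, 7.28 and 8.26 CPM and to 5.58, 5.96 and 10.5 CPM (log2 fold change 2.13, SE 0.31, adjusted p = 0.00528, and 0.0527 without control replicate 2). LDHD, the mitochondrial D-lactate dehydrogenase, had 1, 0 and 3 reads in controls against 20, 27 and 20 and 21, 39 and 34 reads, a ratio of 17.9 (95% exact interval 6.85 to 66.4) with an adjusted p of 0.00208. Sterol synthesis genes had 0 of 23 called, 21 above 0 and a median of 0.30, with HMGCS1 at 1.02. The sterol median was 0.20 without control replicate 2 and 0.50 without control replicate 1. Fatty acid and phospholipid synthesis genes had 0 of 21 called and a median of 0.32, with FASN at 0.77. With the offset 2 sterol genes, HMGCS1 among them, and 4 of fatty acid and phospholipid synthesis, FASN among them, were called higher.

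Several further genes rose that belong to no list above. TES, a focal adhesion protein, went from 6.31, 7.96 and 8.90 CPM to 16.9, 16.9 and 21.7 CPM and to 17.9, 21.8 and 21.3 CPM (log2 fold change 1.33, SE 0.20, adjusted p = 0.00573). BEX2, a small brain-expressed X-linked protein, went from 0.456, 0.287 and 0.293 CPM to 2.28, 4.75 and 4.98 CPM and to 5.32, 5.32 and 5.90 CPM (log2 fold change 3.76, SE 0.43, adjusted p = 0.000899). RND1, a small GTPase that loosens the actin cytoskeleton, had 3 reads in each control and 14 to 38 in each knockdown library, a ratio of 7.01 (95% exact interval 3.59 to 15.7, adjusted p = 0.0268, and 0.231 without control replicate 2). Among transcription factors, HOXB9 rose from 1.29 to 1.90 CPM to 4.42 to 11.7 CPM (log2 fold change 2.17, SE 0.40, adjusted p = 0.0289, and 0.206 without control replicate 3). AKNA, an AT-hook protein, rose from 5.10 to 6.50 CPM to 10.1 to 17.8 CPM (log2 fold change 1.24, adjusted p = 0.0486, and 0.337 without control replicate 2). Among secreted proteins, CPZ, a carboxypeptidase that binds WNT proteins, rose from 1.05 to 1.37 CPM to 2.53 to 4.60 CPM (log2 fold change 1.65, adjusted p = 0.0153, and 0.168 without control replicate 2). The non-coding RNAs LINC00346 and SNHG20 rose by log2 fold changes of 2.06 and 1.30 (adjusted p = 0.00123 and 0.00908, the latter 0.133 without control replicate 2).

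The remaining higher genes were low in counts. CHRNE, a subunit of the muscle acetylcholine receptor, and C17orf107 overlap on chromosome 17 (CHRNE at chr17:4897771-4908677, C17orf107 at chr17:4899536-4906715, RefSeq on GRCh38.p14), so how reads were divided between them is uncertain. C17orf107 had 12, 9 and 12 reads in controls and rose from 0.516 to 0.912 CPM to 3.78 to 5.96 CPM, and CHRNE had 3, 1 and 1 reads against 21 to 38. Their adjusted p values were 0.000899 and 0.00243. C16orf71 rose from 0.532 to 0.761 CPM to 3.10 to 5.37 CPM (adjusted p = 0.000899). TTC39A, ZBED3 and KLHDC7B were below 1 CPM in every control and had adjusted p values of 0.0231, 0.0209 and 0.0253. Each of these 3 was lost without single libraries, with adjusted p values up to 0.168, 0.189 and 0.197.

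The genes that fell were few. METTL7A, a methyltransferase-like protein of the ER and lipid droplets, had 17, 21 and 27 reads in controls, 7, 7 and 5 with shRNA 1 and 5, 6 and 10 with shRNA 2. Its level fell from 1.20 to 1.58 CPM to 0.274 to 0.509 CPM (log2 fold change -1.85, SE 0.22, adjusted p = 0.000899). DNALI1, a light intermediate chain of axonemal dynein, was at 69.5, 48.7 and 45.5 CPM in controls and at 22.3 to 30.1 CPM in the knockdown libraries (log2 fold change -0.95, SE 0.19, adjusted p = 0.0486). Control replicate 1, the library with the low TMM factor, was the highest of all for DNALI1, and the call held in none of the 9 fits without 1 library, with adjusted p values up to 0.29.

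Genes of the SASP did not pass the test. Of 26 cytokine and chemokine genes tested, 0 were called by edgeR or with the GC content and length offset, 25 had a log2 fold change below 0 and 1 above 0 (38.9% of all genes were above 0), the median was -0.40, and only CXCL6, at -0.69, and CCL7, at -1.19, had an unadjusted p under 0.05. IL6 was at -0.21, CXCL8 at -0.28, IL1A at -0.20 and IL1B at -0.33. The summed level of the list was 21721 to 27042 CPM in controls, 18715 to 20408 CPM with shRNA 1 and 18422 to 20601 CPM with shRNA 2, without overlap. Of 15 SASP proteases and inhibitors, 0 were called, 14 were below 0 and the median was -0.28, which was -0.06 without control replicate 1 and -0.46 without control replicate 2. Interferon-stimulated genes had 0 of 30 called and a median of -0.26, and NF-κB subunits and feedback genes had 0 of 19 called and a median of -0.16. Cell cycle genes had 0 of 38 called and a median of -0.07, with CDC6, a licensing factor of replication, at 1.91. Targets of p53 had 0 of 27 called and a median of -0.13, with CDKN1A at -0.26, and genes for death receptors and the BCL2 family had 0 of 34 called and a median of -0.13. With the GC content and length offset 1 cell cycle gene, CDC6 (adjusted p = 0.00231), and 1 target of p53 were called, both higher.

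**Figure D3:**
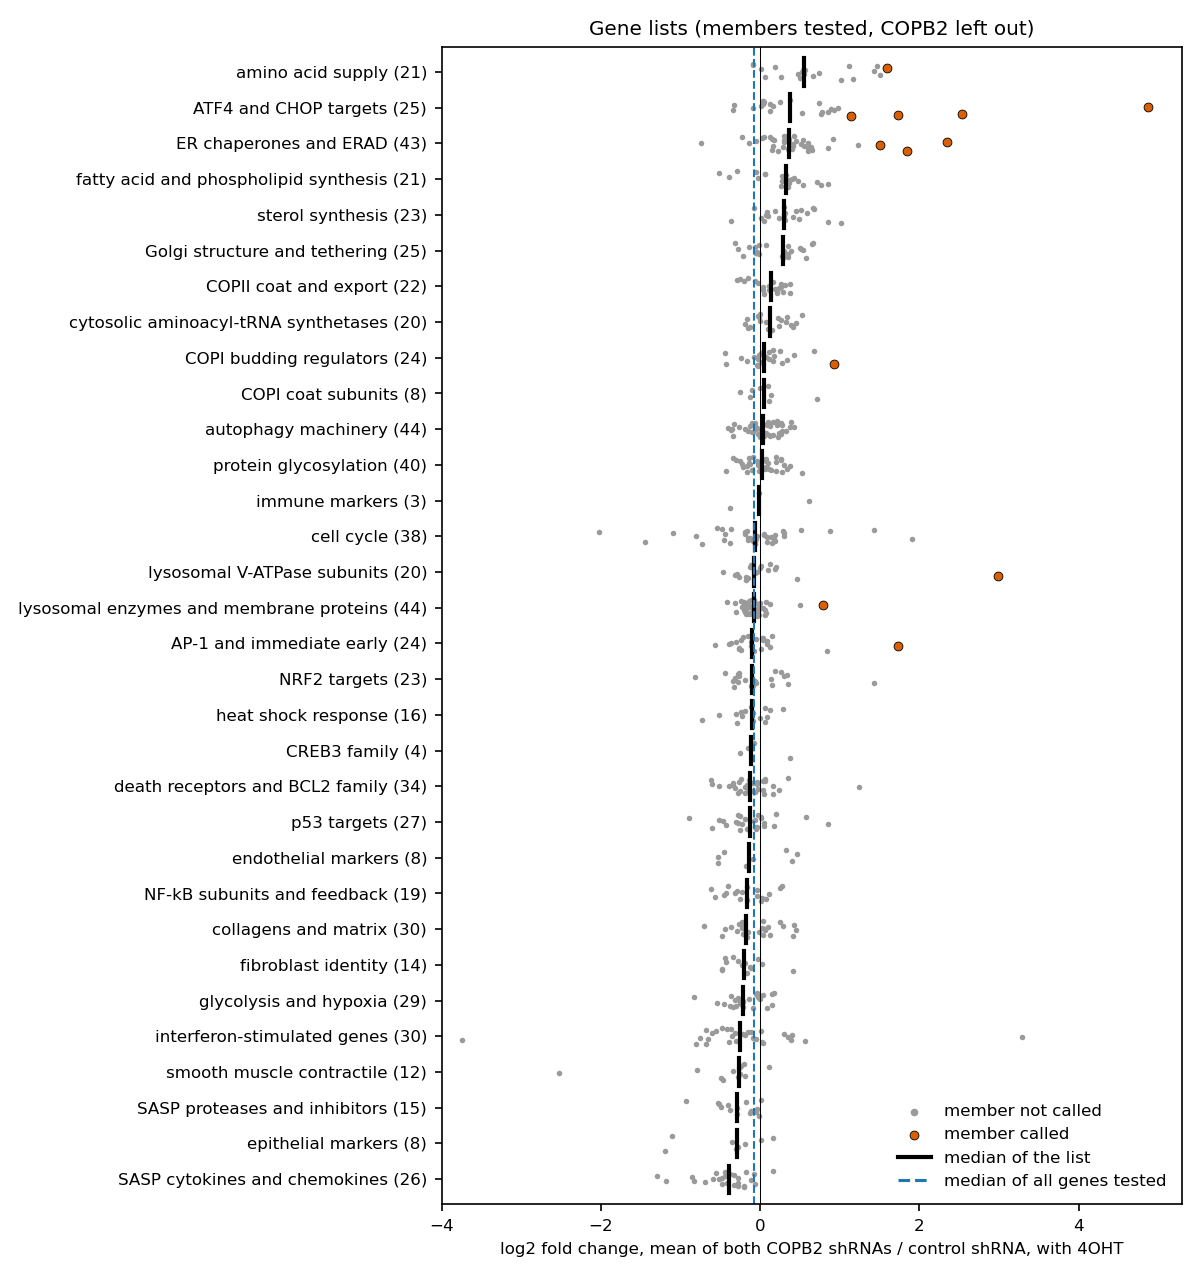
Log2 fold change of the mean of both COPB2 shRNAs against the control with 4OHT (horizontal axis) for the members of each gene list (rows, number of members tested in brackets), with called members in orange, list medians as black bars and the median of all genes as a dashed line. The medians run from -0.40 for SASP cytokines and chemokines to 0.55 for amino acid supply.

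The other lists were near the median of all genes or below it. Collagens and other matrix genes had 0 of 30 called (median -0.18), smooth muscle contractile genes 0 of 12 (-0.27), genes of glycolysis and hypoxia 0 of 29 (-0.22), NRF2 targets 0 of 23 (-0.10) and protein glycosylation 0 of 40 (0.02). The AP-1 and immediate early list had 1 of 24 called, ATF3, and a median of -0.10, and the CREB3 family, sensors of Golgi and ER stress, 0 of 4 called (median -0.11). With the GC content and length offset CREB3 itself was called higher (log2 fold change 0.60, adjusted p = 0.0303). The offset also called 1 gene of protein glycosylation higher and 1 NRF2 target lower. Fibroblast identity genes had 0 of 14 called and a median of -0.21, and their summed level was 14054 to 20799 CPM in controls and 13545 to 16177 CPM in the knockdown libraries. Epithelial markers summed to 58.6 to 207 CPM in controls and 61.6 to 134 CPM in the knockdown libraries, with CDH1 and SFTPC too low to test. Endothelial markers summed to 101 to 169 CPM and 99.4 to 125 CPM. Immune markers summed to 98.1 to 103 CPM and 70.6 to 85.9 CPM, without overlap, with the pan-leukocyte gene PTPRC too low to test. The median log2 fold change of the 3 tested was -0.01. No member of the epithelial (8 tested), endothelial (8 tested) or immune (3 tested) lists was called. The cultures were of a fibroblast line and the labels name no other cell type. The sums are therefore levels of genes and not numbers of such cells, and the part of such cells in the results was not tested. In bulk RNA, a change in the mix of these fibroblasts and a change in RNA per cell cannot be told apart.

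The knockdown response was next read in the 2 other states. In DMSO the mean of both shRNAs changed 2 genes of 14297 (0.014%), COPB2 and WNT7B, both lower, although COPB2 fell by 2.84 (SE 0.24) on the log2 scale. Of the 34 genes higher with 4OHT, none was called in DMSO, 31 had a log2 fold change above 0 (49.3% of all genes did), and their median was 0.31 in DMSO against 2.09 with 4OHT. The 34 were picked by their calls with 4OHT, which by itself favours a larger median there. The gap between these medians is therefore not a measure of the difference between states. HSPA5 was at 785 to 1106 CPM in DMSO controls and at 715 to 1177 CPM in DMSO knockdown libraries (log2 fold change 0.01, SE 0.30). DDIT3 was at 24.0 to 44.3 CPM and 26.9 to 50.7 CPM (log2 fold change 0.22, SE 0.31). INHBE did not pass the test either, with 1.11 to 1.86 CPM in controls and 2.83 to 8.42 CPM with knockdown, without overlap (log2 fold change 1.94, SE 0.43). MFSD2A changed by a similar size in both states, at 2.26 to 2.97 CPM in DMSO controls and 3.64 to 8.83 CPM with knockdown, or 1.27 on the log2 scale (SE 0.21, adjusted p = 0.127) beside 1.16 with 4OHT. LAMP3 (2.35, SE 1.06) and KLHDC7B (1.58, SE 0.52), low in counts, had larger values in DMSO and were not called. List medians in DMSO were 0.46 for amino acid supply, 0.22 for ATF4 and CHOP targets and 0.01 for ER chaperones and degradation. The median of all genes there was -0.002.

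With bleomycin, in separate libraries, the mean of both shRNAs changed 7 genes of 14783 (0.0474%), 6 higher and 1 lower, the latter COPB2. The 6 were INHBE, DDIT3 and HERPUD1, which were also called with 4OHT, and CTH, MTHFD2 and ADM2, genes of the transsulfuration pathway, of mitochondrial folate metabolism and of an adrenomedullin-like peptide. INHBE rose from 0.238 to 1.65 CPM in 4 controls to 1.91 to 5.54 CPM in 8 knockdown libraries (log2 fold change 2.02, SE 0.37, adjusted p = 0.0472). DDIT3 rose from 27.3 to 43.7 CPM to 39.2 to 86.4 CPM (log2 fold change 0.89, SE 0.15, adjusted p = 0.0178), and HERPUD1 from 79.7 to 112 CPM to 135 to 225 CPM (log2 fold change 0.86, SE 0.14, adjusted p = 0.0178). ATP6V0D2 was at 0.922 to 1.82 CPM in controls and 1.26 to 6.27 CPM with knockdown, overlapping and not called (log2 fold change 0.91, SE 0.42). Of 33 higher genes that could be tested there, 29 were above 0 (54.2% of all genes were) with a median of 0.43. Here too the genes had been picked by their calls with 4OHT, so this median does not measure a difference from that state. Without control replicate 1 or 3 of the bleomycin set a single gene was called, and with the GC content and length offset 24 were.

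**Figure D4:**
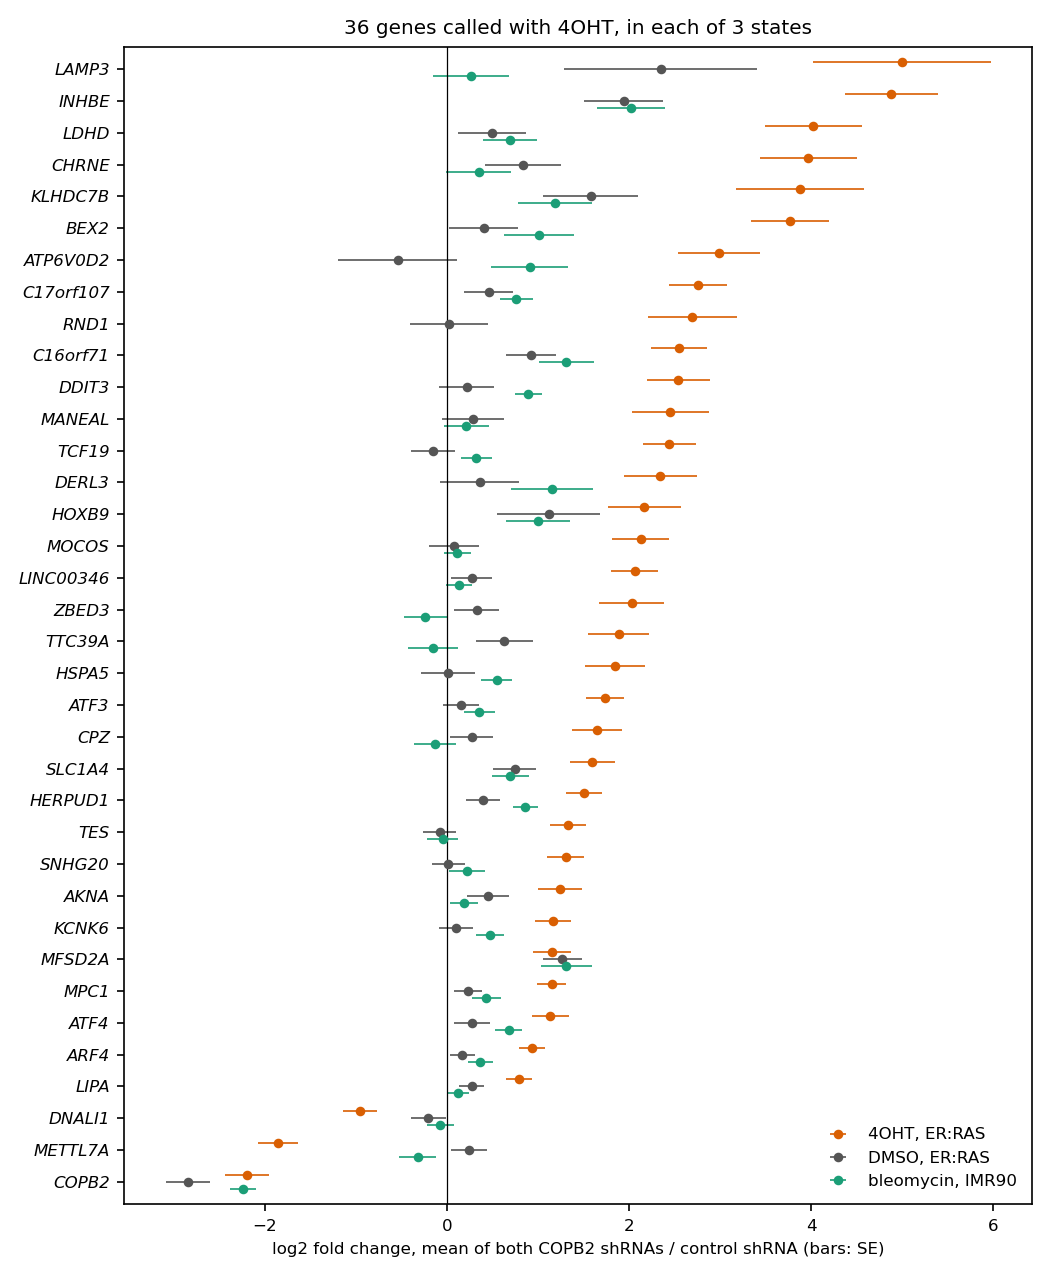
Log2 fold change (horizontal axis, bars are SE) of the mean of both COPB2 shRNAs against the control shRNA for 36 of the 38 genes called with 4OHT, in 4OHT-treated ER:RAS cells (orange, 6 against 3 libraries), DMSO-treated ER:RAS cells (grey, 6 against 3) and bleomycin-treated IMR90 cells (green, 8 against 4). COPB2 falls in all 3 states, MFSD2A has similar values in each, and TCF19, TES, ATP6V0D2 and METTL7A differ in sign between 4OHT and DMSO. Their values in DMSO are -0.15 (SE 0.24), -0.08 (SE 0.18), -0.54 (SE 0.65) and 0.24 (SE 0.20), none of them called.

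Whether the response differed between 4OHT and DMSO was tested by the difference of the knockdown effects, which passed for 2 genes of 14297 (0.014%), with 295 at an unadjusted p under 0.05. TCF19, a proliferation-associated transcription factor, was at 1.44, 1.03 and 1.58 CPM in 4OHT controls, at 5.95, 6.69 and 10.2 CPM with shRNA 1 and at 4.94, 6.49 and 10.0 CPM with shRNA 2 (log2 fold change 2.44, SE 0.29). In DMSO it was at 9.76 to 11.6 CPM in controls and 8.13 to 12.7 CPM with knockdown, so the knockdown effects differed by 2.60 (SE 0.36, adjusted p = 0.0343). METTL7A was at 12.1 to 15.3 CPM in DMSO controls and at 13.7 CPM or above in DMSO knockdown libraries, and its effects differed by -2.09 (SE 0.30, adjusted p = 0.0343). When 1 of the 18 libraries was left out, TCF19 passed in 5 and METTL7A in 3 of the 18 fits, with adjusted p values of up to 0.184 for TCF19 (without 4OHT control replicate 2) and 0.216 for METTL7A (without DMSO control replicate 1). For DDIT3 the difference was 2.32 (SE 0.44, adjusted p = 0.122), for HSPA5 1.83 (SE 0.42, adjusted p = 0.448) and for INHBE 2.94 (SE 0.59, adjusted p = 0.183), so these did not pass. In the DESeq2 Wald test all 3 passed, with adjusted p values of 0.000288 for DDIT3, 0.016 for HSPA5 and 0.000783 for INHBE, so the call for these genes depended on the test. COPB2 itself differed by 0.65 (SE 0.36, adjusted p = 1).

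Levels in DMSO controls also place the genes that rose. TES was at 40.8 to 52.4 CPM there, above its 16.9 to 21.8 CPM in the 4OHT knockdown libraries, and MOCOS was at 8.07 to 13.6 CPM, against 4.20 to 10.5 CPM. CPZ was at 45.4 to 73.9 CPM in DMSO controls, far above the 2.53 to 4.60 CPM of the 4OHT knockdown libraries, and ZBED3 at 6.80 to 14.1 CPM against 0.584 to 0.967 CPM. Some genes went the other way: MFSD2A was at 2.26 to 2.97 CPM in DMSO controls and 19.1 CPM or more in 4OHT controls, HOXB9 at 0.142 CPM or less and 1.29 to 1.90 CPM, and ATP6V0D2 at 0.169 CPM or less and 2.05 to 2.99 CPM. For HSPA5, HERPUD1 and ATF3 the DMSO and 4OHT controls overlapped. HSPA5 was at 785 to 1106 CPM and 495 to 1116 CPM, HERPUD1 at 97.1 to 114 CPM and 89.1 to 142 CPM, and ATF3 at 13.6 to 18.2 CPM and 10.1 to 17.6 CPM. METTL7A, which fell with knockdown, was at 12.1 to 15.3 CPM in DMSO controls and 1.20 to 1.58 CPM in 4OHT controls. The 4OHT controls enter both sets of values.

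Promoters were searched for motifs of the stress factors named above and for the E-box CACGTG, which is not assigned to those factors here. RefSeq sequences from 250 bases before to 50 after the start (GRCh38.p14) were available for 12 of the 19 genes called with both shRNAs, 23 of the 38 and 11081 of 14297 genes tested, and both strands were read. TTGCATCA, a composite motif of C/EBP and ATF factors, was in 1 of the 12 (HERPUD1, 8.33%) and in 0.505% of all, and the longer TGATGCAAT, which contains its reverse complement, in none of the 12 and 0.135% of all. The E-box CACGTG was in 2 of the 12 (BEX2 and HERPUD1, 16.7%) and 9.84% of all, and TGACGTGG in 1 of the 12 (COPB2 itself) and 0.939% of all. The ER stress response element (CCAAT, 9 bases, CCACG) was in none of the 12 and 0.126% of all, but HSPA5, 1 of the 23, held it. The palindrome TGACGTCA was in none of the 23 and 3.29% of all. The only match in ATF4 was the E-box. The stretches with matches in 3 stress genes are shown with the matches in capitals, as these genes rose together.
HERPUD1, chr16:56931956-56931998, plus strand: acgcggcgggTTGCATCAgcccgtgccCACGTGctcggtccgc
HSPA5, chr9:125241381-125241419, minus strand: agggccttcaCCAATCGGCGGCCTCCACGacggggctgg
ATF4, chr22:39520467-39520492, plus strand: aggagacggtCACGTGgtcgcggcgg
These lie 186 to 144, 76 to 38 and 92 to 67 bases before the start of the gene. The matches describe letters in these windows, and nothing about binding was measured.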

How the data were processed

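Poly(A) RNA libraries were sequenced by the authors, and their deposited table gives unnormalised counts for 28266 gene symbols, used here as they stand. The sources disagree on the upstream steps: the methods name TopHat and hg19, the submitters' processing notes DRAGEN, STAR 2.7.8a, DESeq2 1.32.0 and hg38. No coordinates were therefore taken from the table. Gene positions and promoters are from RefSeq (GRCh38.p14), shRNA sites from a match to GENCODE on GRCh37. Whether counting used strand is not given in the sources used here. No mitochondrially encoded gene was in the table.

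Library depth over the series was 13148194 to 23597310 counts. The 18 ER:RAS libraries were fitted together, and the 24 IMR90 libraries separately, with edgeR 4.0.16 (TMM, filterByExpr, robust quasi-likelihood F-test, two-sided, Benjamini-Hochberg over all genes tested, called at an adjusted p under 0.05; R 4.3.3). SEs are the log2 fold change divided by the square root of F. Alternatives were DESeq2 1.42.0, its size factors, no filter, fits of a single treatment, a replicate block and leaving out each library; the offset for GC content and transcript length, available for 13778 of 14297 genes, was added after the data were seen. Exact binomial intervals cover counting error only. Named by rule were genes called with both shRNAs, up to 12 per direction called on the mean of both (same sign, no overlap, a mean of 100 counts or more in the higher group), up to 5 per direction for the interaction, and list members. Other named genes were chosen after their values were seen, and some genes are not reported here. Members and lists were chosen with earlier results of these data known.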

Additional observations from a re-analysis of the deposited data

Results flagged for a closer look

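In a test of the difference between the COPB2 knockdown effects with 4OHT and with DMSO, 2 genes passed. The effect on TCF19 was higher with 4OHT by 2.60 on the log2 scale (edgeR quasi-likelihood test, adjusted p = 0.0343), with 6 of 6 knockdown libraries above the controls with 4OHT. That on METTL7A was lower with 4OHT by a log2 difference of -2.09 (adjusted p = 0.0343), with 6 of 6 knockdown libraries below the controls. Such a lack of overlap was a condition for naming both genes and held for 4.11% of genes tested, so it adds no support. Leaving out 1 of 18 libraries gave adjusted p values of up to 0.184 for TCF19 and 0.216 for METTL7A.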

How the results depend on the processing

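None of the 38 genes changed sign in any other fit. As their 6 knockdown libraries did not overlap the 3 controls, a change of sign was hardly possible, so this adds no support. Of 608 pairs of gene and fit, the call was kept in 455 and lost in 153. Outside the offset fits and those without 1 library, 9 of the 38 genes kept their call throughout. With the GC content and length offset 1 list median changed sign, that of the 3 immune markers tested (-0.01 to 0.06). The DESeq2 Wald test called 50 genes with shRNA 1, 70 with shRNA 2, 44 with both and 93 on the mean of both, and 17 for the difference between 4OHT and DMSO, 4 in DMSO and 15 with bleomycin. The GC content and length offset gave 68, 157, 64 and 218, then 4 for the difference between states and 24 with bleomycin. A fit of the libraries with 4OHT alone called 0, 10, 0 and 11, and COPB2 with shRNA 1 was at -2.27 with an adjusted p of 0.0580. Fits of DMSO or bleomycin libraries alone called 1 each, and asking also for a log2 change of 1 or more in size left 4 genes with bleomycin. Without the filter on low counts the difference between states was called for 0 genes in edgeR, with 447 at an unadjusted p under 0.05.

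Leaving out 1 library gave 10 to 18 genes with shRNA 1, 15 to 31 with shRNA 2, 10 to 18 with both, 17 to 41 on the mean, 0 to 3 for the difference between states, 1 to 3 in DMSO and 1 to 7 with bleomycin, and 15 of the 38 genes were called in every such fit of the mean. Control replicate 2 was the library whose loss cost most calls on the mean.

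With the replicate number as a block, 44 genes were called with shRNA 1, 76 with shRNA 2, 42 with both, 105 on the mean, 8 for the difference between states and 14 with bleomycin. The block together with the offset gave 244, 464, 228, 611, 31 and 73, and 8 in DMSO. With the block alone the difference between states passed for DDIT3 (adjusted p = 0.00466) and HSPA5 (0.00585) but not INHBE (0.0775). The numbers were not taken as pairs, which needed every same-number correlation of deviations with 4OHT to exceed 0.1: 7 of 9 did, at 0.619 to 0.865, and 2, both of control replicate 2, were -0.127 and -0.211. As a hint from the data, 14 of 18 libraries correlated best with their own number. The causes of these differences were not tested.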
